A study of Homo sapiens with 40 samples.

Results

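H929 cells carrying the short hairpin RNA shCasp10-2 were profiled on 8 of the 40 arrays of the series, chosen by the cell line and hairpin in their titles. H929 is a human multiple myeloma line, that is, malignant plasma cells. The cells had been transduced with a retroviral vector for the hairpin and selected with puromycin. On each array Cy5-labelled RNA of cells given 20 ng/ml doxycycline to switch the hairpin on was set against Cy3-labelled RNA of the same transduced cells left uninduced on the same day, so both channels carried the vector and the selection. Repeat 1 covered days 1, 2, 3 and 4 of induction and repeat 2 days 2, 3, 4 and 5. Day 1 and day 5 have no repeat number in their titles and were placed by the run of their database numbers. The comparators were H929 with the hairpin shCasp10-3 (4 arrays, days 2 to 5), KMS12 myeloma cells with shCasp10-2 (4 arrays, days 1 to 4) and KMS12 with shCasp10-3 (4 arrays, days 2 to 5), each induced against uninduced in the same way. No H929 array held cells with a control hairpin, so an effect of doxycycline itself cannot be told apart from that of the hairpin. The arrays of a repeat follow one course of cells. The p-values measure the spread between arrays, pooled over the 14 arrays used of H929 shCasp10-2 and the comparators.

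Caspase-10 is an initiator caspase closely related to caspase-8. It is recruited to death receptors through the adaptor FADD and forms heterodimers with the FLIP protein encoded by CFLAR. Myeloma cells depend on the transcription factor IRF4, and caspase-10 has been described in them as a brake on autophagy that cleaves the BCL2-associated factor BCLAF1.

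The values were log2 ratios of induced over uninduced, with no levels behind them, so markers could not show whether the cells were plasma cells. The array of repeat 1 day 1 had 46.4% of its 15246 probes beyond 3 in absolute value and that of repeat 1 day 2 had 25.1%, nearly all of them below -3. Both were left out of the tests, since over 10% of their probes were that wide. Repeat 1 day 3 was kept with 6.46%, and the other 5 arrays had 0.203% to 1.40%. On repeat 1 day 1 the value 0.855 stood on 544 probes, and 7058 probes were below -3. Over all probes repeat 1 day 3 correlated with repeat 2 day 3 at r = -0.351, although both arrays carry the same dye labels, and at -0.083 over the 7152 probes within 3. With an array that runs against its partner the direction of either is not settled, and the counts of calls are also given in the closing part with the sign of either day 3 array turned. Across probes, which are not independent, the correlation of 2 arrays used had a median of 0.216 within a repeat (7 pairs) and of 0.04 between repeats (8 pairs), or 0.227 and 0.093 over the probes within 3.

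**Figure D1:**
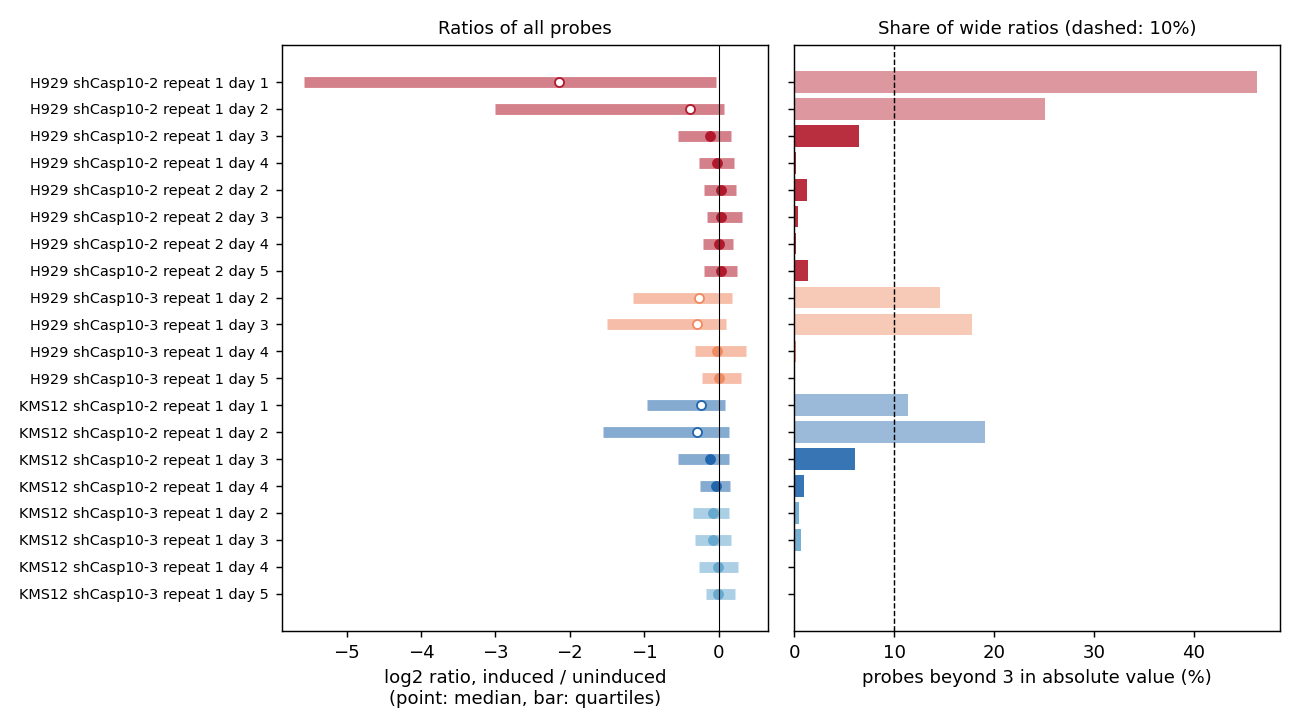
Left, median (point) and quartiles (bar) of the log2 ratios of all probes on each array, in log2 units, with open points for arrays left out; right, the percentage of probes beyond 3 in absolute value, with the 10% limit dashed. Repeat 1 day 1 and day 2 of H929 shCasp10-2 had 46.4% and 25.1%, repeat 1 day 3 had 6.46%, and the other 5 had at most 1.40%.

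The first question was whether the hairpin lowered its target. On 3 of the 6 CASP10 probes it was lower in induced cells on every array, and on the other 3 it was not. Probe 17182_1 was -0.55 and -0.82 on repeat 1 days 3 and 4 and -0.41, -0.52, -0.51 and -0.37 on repeat 2 days 2 to 5. Probe 28375_1 was -0.57 and -0.56 in repeat 1 and -0.28, -0.75, -0.55 and -0.46 in repeat 2. Both probes were below 0 on all 8 arrays, as was 28720_1, and as were 2.97% of all features, beside 3.69% on the 6 arrays used. The 2 wide arrays add little to this, since their medians over all probes were -2.145 and -0.39. Probe 30438_1, above 0 on the 6 arrays used, was -6.06 and -4.42 on them. Probe 28720_1 was -0.93 and -0.67 in repeat 1 and -0.20, -0.56, -0.52 and -0.41 in repeat 2. Tested one by one among all probes, an alternative to averaging the probes of a gene, these 3 fell by 0.53 (SE 0.0706, limma adjusted p = 0.0238), 0.53 (SE 0.0736, adjusted p = 0.0263) and 0.56 (SE 0.0933, adjusted p = 0.0459), in a test that called 29 of 15246 probes (0.19%), 14 of them lower (0.0918%). Without repeat 1 day 3 the first 2 still passed (both at adjusted p = 0.036) and 28720_1 did not (adjusted p = 0.0511). None of the 3 passed without repeat 1 day 4, repeat 2 day 4 or repeat 2 day 5, or with either repeat alone. Nor did any pass on the means of the repeats, with all arrays kept or with the H929 shCasp10-2 arrays alone, and on simulated data with correlated arrays within a course this kind of fit made more false calls than its threshold allows.

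The other 3 CASP10 probes did not pass. Probe 17814_1 was at -0.40 (SE 0.117, adjusted p = 0.208), with 5 of 6 arrays below 0. Probe 30438_1 was above 0 on all 6 arrays, at 0.49 (SE 0.118, adjusted p = 0.139). Probe 32624_1 ran between 1.40 on repeat 2 day 2 and -0.60 on repeat 1 day 3. Averaged over its 6 probes CASP10 was -0.38 and -0.32 in repeat 1 and 0.13, -0.20, -0.18 and -0.16 in repeat 2, which gave -0.19 (SE 0.072, adjusted p = 0.397). The files do not say which transcript each probe reads.

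In the other groups probe 17182_1 was -0.60 and -0.49 in H929 shCasp10-3, -0.95 and -0.66 in KMS12 shCasp10-2, and -0.26 to -0.34 in KMS12 shCasp10-3. Probe 28720_1 was 0.24 and 0.10 in H929 shCasp10-3, and its difference of -0.73 (SE 0.183) from H929 shCasp10-2 did not pass (adjusted p = 0.398). No CASP10 probe differed from H929 shCasp10-3 or from KMS12 shCasp10-2 beyond the threshold.

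**Figure D2:**
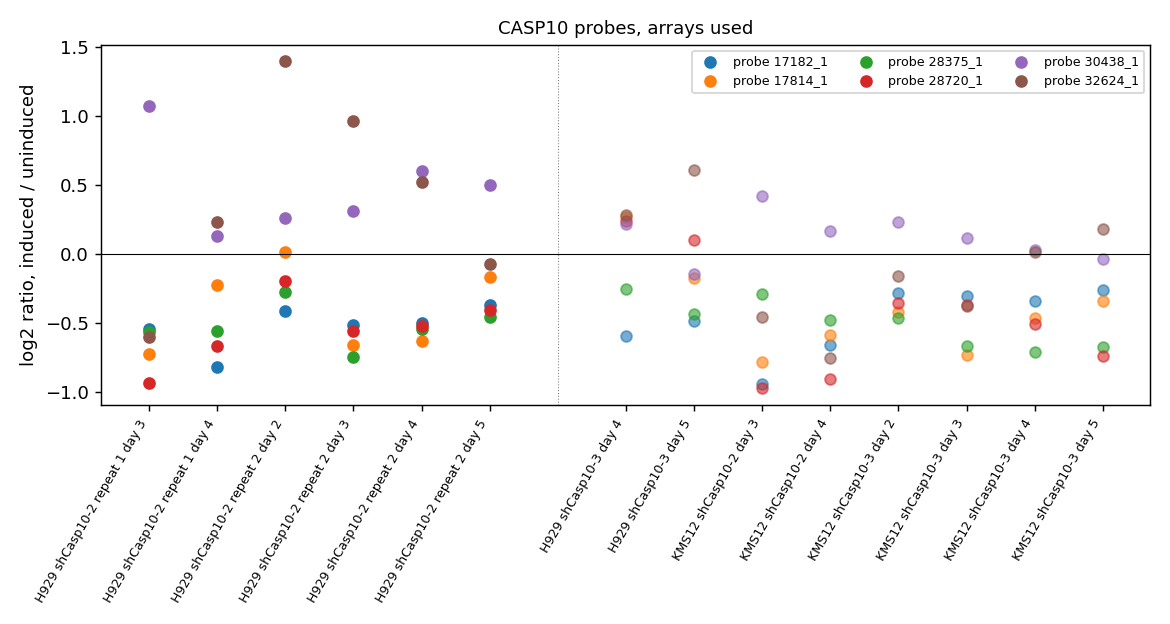
Log2 ratio of induced over uninduced (vertical axis) of each of the 6 CASP10 probes on the 6 H929 shCasp10-2 arrays used (left of the dotted line) and on the arrays used of H929 shCasp10-3, KMS12 shCasp10-2 and KMS12 shCasp10-3. Probes 17182_1, 28375_1 and 28720_1 lie below 0 on every H929 shCasp10-2 array and 30438_1 above 0.

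Beyond CASP10, the probe test called 1 probe each of 16 named genes, and 10 probes with no gene name. HLA-DOB, IKBKG, GPX1, ISL1, IMPA1 and COX15 are read by 1 probe, so averaging leaves their values unchanged. For them the 2 tests rest on the same values. Another caspase was among the 8 genes that rose. A probe of CASP4, an inflammatory caspase that senses intracellular lipopolysaccharide, was 0.37 and 0.58 in repeat 1 and 0.63, 0.29, 0.62 and 0.48 in repeat 2, and rose by 0.50 (SE 0.066, limma adjusted p = 0.0238). The second CASP4 probe was at 0.07 (adjusted p = 0.811). HLA-DOB, a B-cell regulator of peptide loading on class II molecules, showed the highest of these values at 0.89 (SE 0.137, adjusted p = 0.0359). IKBKG, the regulatory subunit NEMO of the IKK complex that activates NF-kB, rose by 0.74 (SE 0.126, adjusted p = 0.0459). GPX1, which reduces hydrogen peroxide, rose by 0.60 (SE 0.0967, adjusted p = 0.0428). The remaining risers were the LIM-homeodomain factor ISL1 at 0.75, 1 of 3 probes of the zinc finger gene ZNF80 at 0.66, 1 of 5 probes of the formyl peptide receptor FPR1 at 0.64 and 1 of 4 probes of TMEM223 at 0.49. On the wide arrays of repeat 1 days 1 and 2 the called CASP4 probe was -5.98 and -5.92 and IKBKG was -6.17 and -5.7. The called probes of FPR1, ZNF80, TMEM223, HLA-DOB and GPX1 were below 0 on both as well. ISL1 carried the shared value 0.855 on day 1 and was -4.64 on day 2. Of these 16 genes IKBKG (adjusted p = 0.0603), CCNG2 (0.0603) and FPR1 (0.0511) were not called without repeat 1 day 3. Leaving out other arrays was not examined for these single probes. With probes averaged, 0, 1 and 0 features were called without repeat 1 day 4, repeat 2 day 4 and repeat 2 day 5. With averaging HLA-DOB was called in 4 of 21 alternatives, IKBKG in 3 of 21, CCNG2 in 1 of 21 and COX15 in 7 of 23.

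The 8 other genes with a fallen probe included enzymes of matrix, inositol and heme metabolism. A probe of P4HA1, which hydroxylates prolines of collagen and is a target of hypoxia-inducible factor, fell by 0.67 (SE 0.0953, adjusted p = 0.0306), and its second probe was at -0.47 (adjusted p = 0.107). IMPA1, the inositol monophosphatase inhibited by lithium, fell by 0.48 (SE 0.0717, adjusted p = 0.0359). COX15, which makes heme A for cytochrome c oxidase, fell by 0.83 (SE 0.126, adjusted p = 0.0359). STAG2, a subunit of cohesin, fell on 1 of 4 probes by 0.68, and its other probes were at -0.44, -0.46 and -0.51. CCNG2, an atypical cyclin linked to cell cycle exit, fell on 1 of 3 probes by 0.55. The zinc finger gene HIVEP2 fell on 1 of 2 probes by 0.53, C10orf12 on 1 of 2 by 0.51 and the small GTPase gene RAB30 on 1 of 4 by 0.56. For HIVEP2 the second probe was -5.07 on repeat 1 day 3 and between -0.71 and 0.49 on the other arrays used.

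With the probes of a gene averaged, limma called 3 of 9681 features in the H929 shCasp10-2 response (0.031%), none of them with a gene name. Probe 35620_1 rose by 0.72 (SE 0.0948), probe 27950_1 rose by 0.59 (SE 0.0835) and probe 33829_1 fell by 0.66 (SE 0.0813), the only one lower (0.0103%), at adjusted p of 0.0328 to 0.0455. At an unadjusted p under 0.05 there were 940 features (9.71%), of which 478 were higher (4.94%) and 462 lower (4.77%). Without repeat 1 day 3 the count was 23 (0.238%), 13 higher and 10 lower, and 10 were named genes: HLA-DOB, GPX1, ISL1, KLF11 and PRSS23 were higher and IMPA1, COX15, P4HA1, CYP4F2 and STAG2 lower. PRSS23 was named after its values were seen. At a 5% limit on wide arrays, which also drops a KMS12 array, none of these 10 was called among 5 features. On the means of the 2 repeats none passed, with 152 features at an unadjusted p under 0.05.

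The 20 leading named genes were chosen among the features with 1 sign on all 6 arrays, of which 369 were above 0 (3.81%) and 357 below 0 (3.69%). IMPA1 was the steadiest of them, at -0.42 and -0.53 in repeat 1 and -0.51, -0.45, -0.45 and -0.52 in repeat 2. Its values were -0.47 on both wide arrays too. In the fit of averaged probes it stood at -0.48 (SE 0.0736, adjusted p = 0.0575). COX15 was -0.95 and -1.06 in repeat 1 and -0.23, -0.61, -1.07 and -1.02 in repeat 2, for -0.83 (SE 0.13, adjusted p = 0.0575). P4HA1 was -0.45 and -0.40 in repeat 1 and -0.49, -0.47, -1.05 and -0.57 in repeat 2, for -0.57 (SE 0.0928, adjusted p = 0.0618). The day 4 array of repeat 2 was lower than the rest for P4HA1, for which all 4 values of repeat 2 lay below both of repeat 1. The repeats overlapped for IMPA1 and COX15.

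HLA-DOB led the genes above 0, at 0.67 and 0.57 in repeat 1 and 1.12, 1.07, 0.59 and 1.37 in repeat 2, for 0.89 (SE 0.14, adjusted p = 0.0584). On the wide arrays it was -5.36 and -1.13, and GPX1 was -3.95 and -0.83. Their direction therefore held on the 6 arrays used and not on the 2 left out. HMOX1, which breaks down heme, was 0.37 and 0.85 in repeat 1 and 0.44, 0.08, 0.52 and 0.61 in repeat 2, for 0.49 (SE 0.0932, adjusted p = 0.093). The other genes above 0 were the zinc finger factor KLF11 (0.85), the erythroid factor GATA1 (0.78), ISL1 (0.75), IKBKG (0.74), GPX1 (0.60), ARHGAP4 (0.47), the vesicle tethering gene VPS41 (0.38) and the diphthamide synthesis gene DPH1 (0.37). Below 0 stood CDK2AP1 (-0.53), ARF3 (-0.52), STAG2 (-0.52), CCNG2 (-0.49), the insulin-degrading enzyme IDE (-0.39), the cytochrome P450 gene CYP4F2 (-0.33) and the ETS factor FLI1 (-0.31). None of the 20 passed, with adjusted p from 0.0575 to 0.138. Of the 20, 14 had the same sign in the mean of H929 shCasp10-3, 19 in that of KMS12 shCasp10-2 and 15 in that of KMS12 shCasp10-3, against 66.5%, 74.2% and 63.4% of the 726 features chosen in the same way for 1 sign on every array used.

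**Figure D3:**
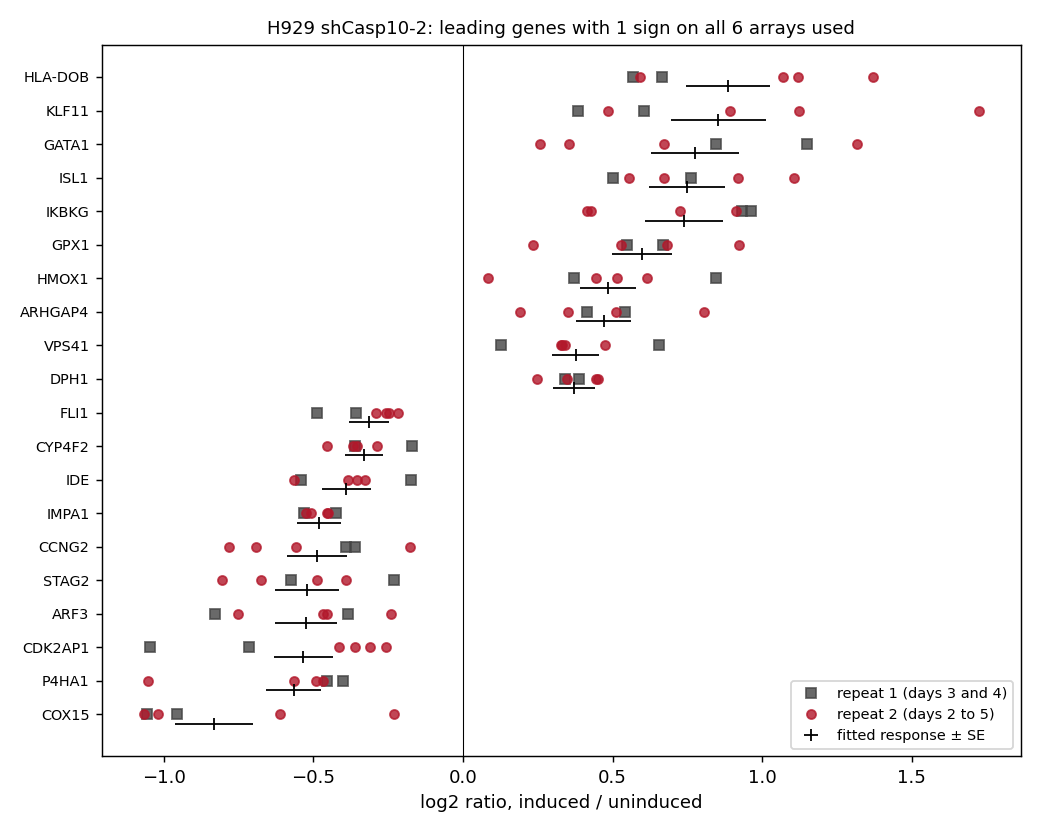
Log2 ratio of induced over uninduced (horizontal axis) of the 20 leading genes on the 6 H929 shCasp10-2 arrays used, squares for repeat 1 and circles for repeat 2, with the fitted response ± SE as a black bar. IMPA1 is the tightest, and P4HA1 has 1 array at -1.05.

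Features whose ratios stayed within 3 on all 20 arrays of H929 and KMS12 allowed the wide arrays to be used as well. Over these 3687 features and all 8 H929 shCasp10-2 arrays limma called 28 (0.759%), 21 lower (0.57%) and 7 higher (0.19%). They were chosen by their own ratios, so the count describes quiet features only. The whole set leaned down: 2300 of the 3687 were below 0 (median -0.06), with 419 lower and 207 higher at an unadjusted p under 0.05. P4HA1 fell by 0.51 (adjusted p = 0.00521), IMPA1 by 0.48 (adjusted p = 0.0129) and COX15 by 0.72 (adjusted p = 0.0188). Further named genes were singled out after their values were seen. BNIP3, a mitophagy receptor induced by hypoxia, was -0.44, -0.31, -0.32 and -0.38 on repeat 1 days 1 to 4 and -0.06, -0.09, -0.69 and -0.38 on repeat 2 days 2 to 5, and fell by 0.33 (adjusted p = 0.047), a call made only with the wide arrays (adjusted p = 0.0964 over the arrays used). GBE1, the glycogen branching enzyme, fell by 0.47 (adjusted p = 0.0385). The cytokine gene FLT3LG fell by 0.86 (adjusted p = 0.0495). In all 14 named genes were called. The others were CAPN7, GOLM1, GSTK1, NUP210, STAG2, STAM and SUSD3, all lower, and HNRNPLL, which rose by 0.39 (adjusted p = 0.0495).

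No member of any of the 28 gene lists was called with the probes averaged, beside 0.031% of all features, so the lists are described by the sign and the median of their members, next to a median of -0.04 over all features. Genes of glycolysis and the hypoxia response lay lower than most lists: 22 of 26 were below 0, against 57.8% of all features, with a median of -0.16, and 7 were lower and 1 higher at an unadjusted p under 0.05, against 4.77% and 4.94% of all features. After P4HA1 the lowest was NDRG1, a stress gene induced by hypoxia, at -0.86 and -0.64 in repeat 1 and 0.17, -0.02, -0.81 and -0.64 in repeat 2, for -0.48 (SE 0.186, adjusted p = 0.423). The highest were the phosphofructokinase gene PFKM at 0.25 (SE 0.0727, adjusted p = 0.259), above 0 on all 6 arrays, and GPI at 0.10. Its median was -0.11 in H929 shCasp10-3, -0.08 in KMS12 shCasp10-2 and -0.24 in KMS12 shCasp10-3, where the medians of all features were 0.002, -0.10 and -0.05, so in KMS12 shCasp10-2 the list was not below all features. By array its median was -0.24 and -0.23 in repeat 1 and 0.15, -0.07, -0.24 and -0.22 on repeat 2 days 2 to 5.

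The promoter of P4HA1 is shown because it was the only gene of that list called without repeat 1 day 3. Over all the arrays used P4HA1 was the lowest of the list but did not pass (limma adjusted p = 0.0618). The window holds the 250 bases before the RefSeq start, on the minus strand of chromosome 10 (GRCh38.p14, chr10:73096867-73097116), and capitals mark its 1 match to the core motif of hypoxia response elements, searched as ACGTG or GCGTG on both strands.
P4HA1: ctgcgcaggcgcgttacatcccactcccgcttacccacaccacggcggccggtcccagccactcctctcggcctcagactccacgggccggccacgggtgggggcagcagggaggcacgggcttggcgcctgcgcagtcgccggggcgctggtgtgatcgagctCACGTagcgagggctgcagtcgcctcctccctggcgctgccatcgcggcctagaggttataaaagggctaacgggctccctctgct
The motif stands in the same window of 43.1% of 27305 genes and of 15 of the 23 measured genes of the list that have a window (65.2%). A match in the letters is no evidence of binding.

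Of the unfolded protein response 15 of 17 genes were below 0, with a median of -0.14. EDEM1, which targets misfolded glycoproteins for degradation, had the lowest estimate at -0.92 (SE 0.713), which came from -5.48 on repeat 1 day 3 against -0.42 to 0.60 on the other 5 arrays. The chaperone calnexin, CANX, was at -0.33 (SE 0.224), and the transcription factor XBP1 was the highest at 0.11. Of cholesterol and fatty acid synthesis 10 of 12 were below 0, with a median of -0.15. INSIG1, which holds sterol-sensing factors in the endoplasmic reticulum, was -0.55 and -0.83 in repeat 1 and -0.01, -0.24, -0.22 and -0.25 in repeat 2, for -0.36 (SE 0.0952, adjusted p = 0.202). Fatty acid synthase, FASN, was at -0.27, and the sterol synthesis genes SC5D and SQLE were the highest at 0.17 and 0.07.

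Of the MYC and ribosome biogenesis targets 14 of 18 were above 0, against 42.2% of all features, with a median of 0.09, 4 higher and 3 lower at an unadjusted p under 0.05. Nucleolin, NCL, was 0.10 and 1.12 in repeat 1 and 0.05, 0.13, 0.85 and 0.52 in repeat 2, for 0.47 (SE 0.159, adjusted p = 0.347). The mitochondrial chaperonin HSPD1 had the highest estimate at 0.72 (SE 0.763), with 5.35 on repeat 2 day 5 and -1.76 on repeat 1 day 4. The purine synthesis gene PPAT and the cap-binding EIF4E were the lowest, at -0.32 and -0.26. The median of that list was -0.08 in repeat 1 and 0.19 in repeat 2, so the repeats differed in sign. The medians of all features did too, at -0.11 and 0.03. Of 24 ribosomal protein genes 17 were above 0 (median 0.05), and of 15 respiratory chain genes 13 were (median 0.08), with COX15 as the lowest and UQCRB (0.22) and COX17 (0.15) as the highest.

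No gene around caspase-10 passed. Of 17 genes of caspase-10 and the death receptor pathway 12 were below 0, with a median of -0.07. CASP8 was -0.37 and 0.01 in repeat 1 and 0.02, -0.01, 0.03 and -0.06 in repeat 2, and CFLAR was at -0.14 (SE 0.105). CASP8 and CFLAR were named for their role beside caspase-10, with their values known. BCLAF1 was the highest of the list, at 0.64 and 0.15 in repeat 1 and -0.14, 0.06, 0.17 and 0.43 in repeat 2, for 0.22 (SE 0.125, adjusted p = 0.578). The inhibitor of apoptosis XIAP was the lowest at -0.35 (SE 0.218). Of the 9 autophagy genes measured 7 were below 0 (median -0.10), with the mitophagy receptor BNIP3L the lowest at -0.60 (SE 0.253) and GABARAPL2, which builds autophagosome membranes, the highest at 0.06.

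Plasma cell genes had a median of -0.03, at that of all features, with 11 of 17 below 0. The secretory cofactor MZB1 was the lowest at -0.39 (SE 0.16) and the surface receptor SLAMF7 the highest at 0.54 (SE 0.338), with SLAMF7 at 2.74 on repeat 2 day 2. FGFR3, a receptor tyrosine kinase switched on by a translocation in H929, was -0.96 and -0.88 in repeat 1 and -0.13, 0.23, -0.43 and -0.66 in repeat 2, for -0.49 (SE 0.2, adjusted p = 0.446). Its partner at the translocation, the histone methyltransferase NSD2, was the highest of that list at 0.15 (SE 0.102). DUSP5, a phosphatase of nuclear ERK induced by ERK signalling, was -1.0 and -1.11 in repeat 1 and 0.04, -0.44, -0.37 and -0.28 in repeat 2, for -0.55 (SE 0.146, adjusted p = 0.21). Its 2 repeats did not overlap.

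Among the 6 arrays used, marker lists of T and NK cells, myeloid cells and mature B cells were lowest on repeat 1 day 3. Lowest there too were the median of all features, at -0.14, and that of the t(4;14) and myeloma oncogene list, at -0.63. The T and NK cell markers had a median of -0.44 on repeat 1 day 3 and 0.44 on repeat 2 day 3, and of -0.16 to 0.16 on the 4 other arrays. Myeloid markers were at -0.50 and 0.29 on the same 2 arrays and mature B cell markers at -0.72 and 0.32. Over 6 arrays the median of the mature B cell markers was -0.08 and without repeat 1 day 3 it was 0.12, while glycolysis and hypoxia stayed at -0.15, the unfolded protein response at -0.13 and cholesterol synthesis at -0.11. On the wide array of repeat 1 day 1 the T and NK cell, myeloid and erythroid lists were at -3.98, -3.08 and -3.60, beside -2.68 over all features. The BCL2 family (-3.81), the caspase-10 list (-3.72) and the mature B cell markers (-3.61) were as low there. Ribosomal proteins (0.33) and the respiratory chain (0.47) were the highest lists on it. The part of these lists' shifts in the other results was not tested.

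**Figure D4:**
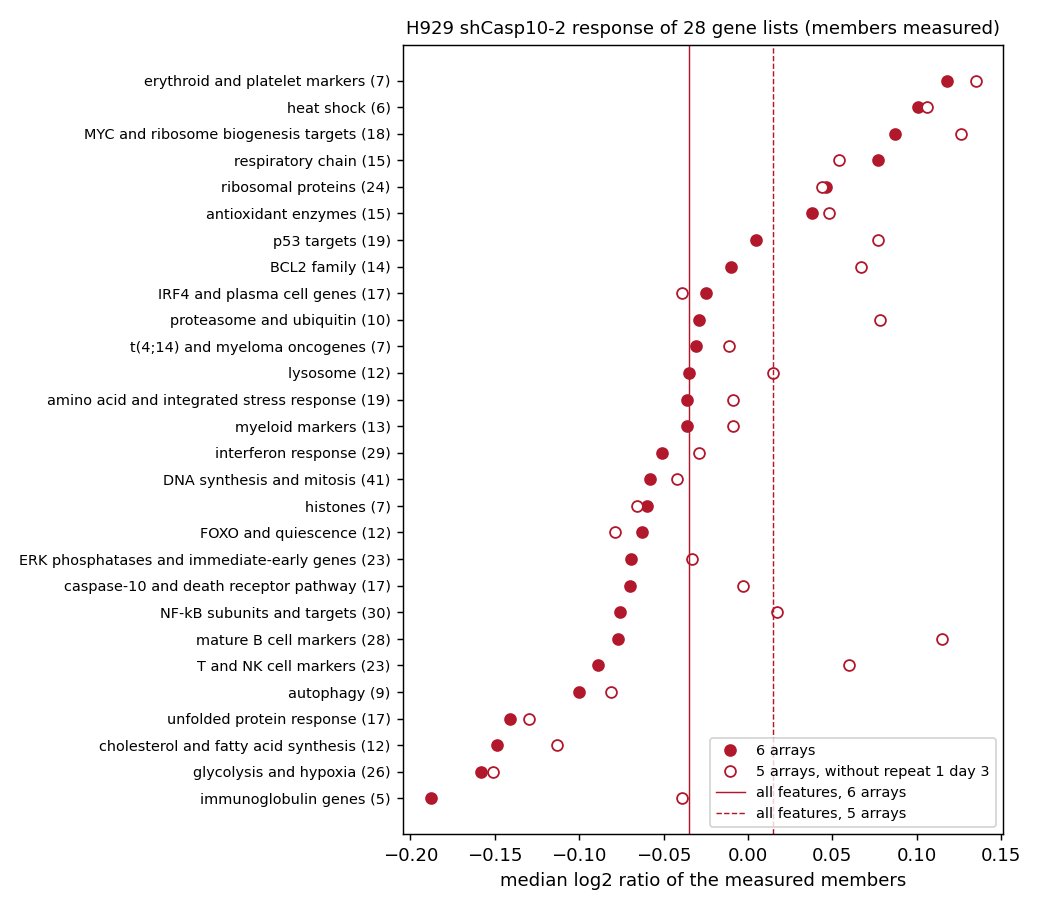
Median log2 ratio of induced over uninduced (horizontal axis) over the measured members of each of the 28 gene lists, filled for all 6 H929 shCasp10-2 arrays used and open without repeat 1 day 3; the lines mark the median of all features. The median of the mature B cell markers shifted most when that array was left out, and the glycolysis and hypoxia list stayed near -0.15.

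The second hairpin in the same line asked whether the response was shared. Set against H929 shCasp10-3, H929 shCasp10-2 differed in 2 of 9681 features (0.0207%), LCN2 and the unnamed probe 28846_1 (difference 4.18, SE 0.45), and in 848 (8.76%) at an unadjusted p under 0.05. LCN2, the siderophore-binding protein lipocalin 2, was -0.19 and -0.40 in repeat 1 and 0.27, -0.12, -0.33 and -0.79 in repeat 2, against 1.41 and 1.98 on days 4 and 5 of H929 shCasp10-3. The groups did not overlap, and the difference was -1.96 (SE 0.264, limma adjusted p = 0.0427). Both features were also called without repeat 1 day 3. LCN2 was not called without repeat 1 day 4, repeat 2 day 3 or repeat 2 day 4, or at the 5% limit on wide arrays. H929 shCasp10-3 is 2 arrays of 1 course. No feature was called on course means, with the same days in pairs or without both day 3 arrays. CCNG2 averaged -0.49 (SD 0.23) over the 6 arrays and was 0.51 and 0.40 in H929 shCasp10-3, a difference of -0.94 (SE 0.196, adjusted p = 0.36).

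Other genes at the edge of that comparison did not pass. P4HA1 was 0.07 and 0.12 in H929 shCasp10-3 and differed by -0.66 (SE 0.18, adjusted p = 0.456). IMPA1 was -0.77 and -0.68 there, so it was below 0 with both hairpins, and differed by 0.24 (adjusted p = 0.623). USP47, a deubiquitinase, was between -0.39 and 0.31 on the 6 arrays, against -1.79 and -1.002 in H929 shCasp10-3, and differed by 1.28 (SE 0.261, adjusted p = 0.36). The noncoding RNA MALAT1 differed by 0.99 (SE 0.202, adjusted p = 0.36). H929 shCasp10-3 kept only days 4 and 5, and days 2 and 3 were left out as wide.

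The same hairpin in KMS12 cells gave the larger count. H929 shCasp10-2 differed from KMS12 shCasp10-2 in 121 features (1.25%), 118 of them higher (1.22%) and 3 lower (0.031%), of which 55 were named genes. KMS12 shCasp10-2 is 2 arrays of 1 course, and no feature was called on the means of the courses (682 at an unadjusted p under 0.05), with the same days in pairs (457) or with all arrays kept (71). The 10 leading genes had means below -3 in KMS12, and 8 of them were also below -3 on a left-out H929 array. KCNQ1, a potassium channel gene, was -0.58 and -0.65 in repeat 1 and -0.39, 0.43, -0.40 and -0.47 in repeat 2, against -5.02 and -4.24 on days 3 and 4 of KMS12 shCasp10-2 (difference 4.27, SE 0.302, adjusted p = 2.2e-05). On the wide H929 arrays KCNQ1 was as low, at -4.61 and -4.15. IFI44, an interferon-induced gene, was -1.04 to 0.30 on the 6 arrays, against -4.33 and -5.29, and FNIP1, a folliculin partner, was -1.24 to 0.58, against -4.12 and -4.40. On day 3 of KMS12 shCasp10-2, 5.98% of probes were below -3, and limma called 16 over features within 3 on all 8 H929 shCasp10-2 arrays. With all arrays kept and only features within 3 on all 20 it called 0, with 143 at an unadjusted p under 0.05.

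Of the 55 named genes, 39 were within 3 on both KMS12 arrays and on the 6 H929 arrays used, and 8 also on the wide H929 arrays. NRG1, a ligand of ERBB receptors, was -0.32 and -0.20 in repeat 1 and 0.02, 0.12, 0.33 and 0.02 in repeat 2, against 0.998 and 1.26 in KMS12 shCasp10-2 (difference -1.14, SE 0.183, adjusted p = 0.00987). Of the 453 measured genes on any list 5 were called higher in H929 (1.1%), near the 1.22% of all features. PIK3C3, the lipid kinase that starts autophagosome formation, averaged -0.10 over 6 arrays, against -1.12 and -1.15 in KMS12 (difference 1.03, SE 0.133, adjusted p = 0.002). The glycyl-tRNA synthetase GARS1 differed by 1.28, the transcription factor MAF by 1.47, the kinase PLK2 by 1.47 and IFI44 by 4.57. INSIG1 was 0.40 and 0.38 in KMS12 shCasp10-2, and its difference of -0.75 did not pass (SE 0.184, adjusted p = 0.0865).

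Change over days 2 to 5 was fitted as a slope within the repeats. No feature passed in limma, with 569 at an unadjusted p under 0.05 (5.88%). The smallest adjusted p, 0.233, was that of ALAS1 and CD14. ALAS1, the first enzyme of heme synthesis, was -0.06 and 0.70 over the 2 days of repeat 1 and -0.98, -0.72, 0.26 and 0.80 over the 4 days of repeat 2, a slope of 0.64 per day (SE 0.0742). CD14, a lipopolysaccharide receptor of myeloid cells, was -0.50 and -0.15 in repeat 1 and -0.55, -0.06, 0.42 and 1.10 in repeat 2, a slope of 0.53 per day (SE 0.0624). In both repeats the values of these 2 genes were higher on each later day. Those of LCN2 were lower on each later day in both, at -0.33 per day (SE 0.0776, adjusted p = 0.827). The lowest slopes among the named genes were those of SPP1, which encodes osteopontin, and NBAS, at -1.56 and -1.45 per day, neither past the threshold. SPP1 was -0.82 and 0.27 in repeat 1 and 2.91, 0.75, -0.13 and -2.88 in repeat 2, so the repeats had slopes of opposite sign.

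**Figure D5:**
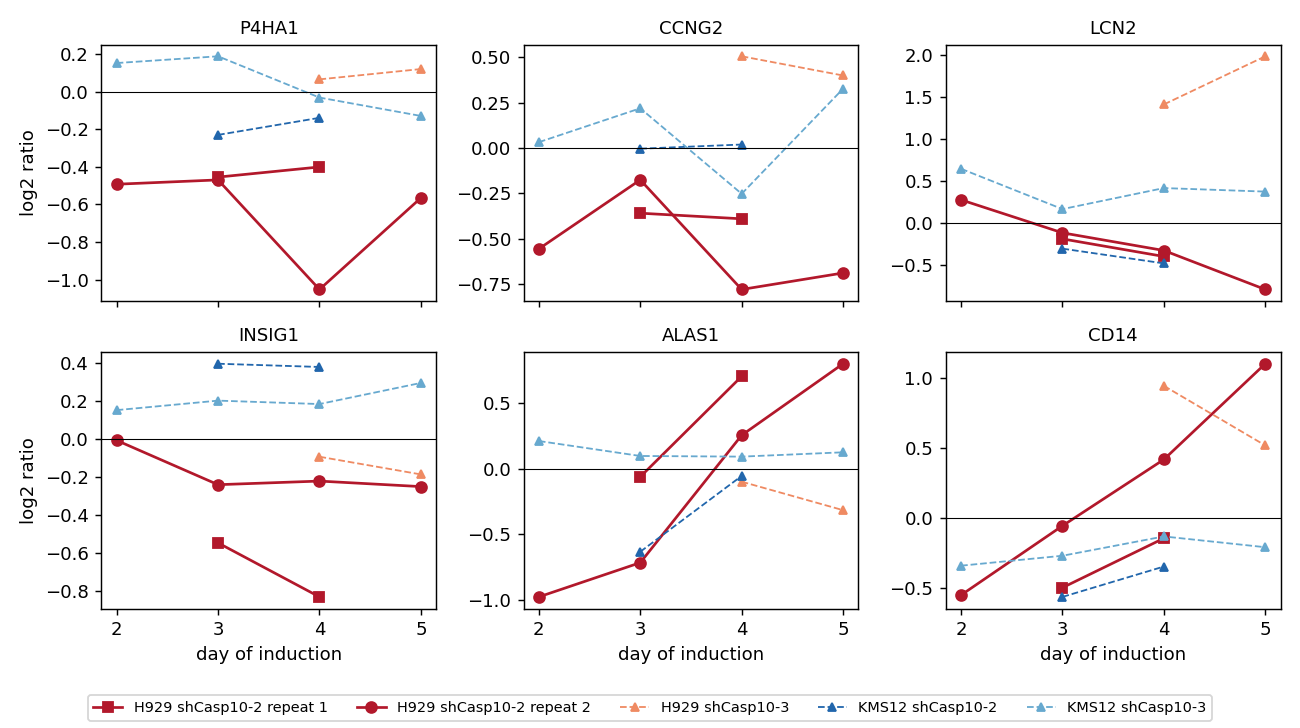
Log2 ratio of induced over uninduced (vertical axes) by day of induction (horizontal axes) for 6 genes on the arrays used, with H929 shCasp10-2 in dark red (squares for repeat 1, circles for repeat 2) and the comparators as triangles. P4HA1 lies below 0 on all 6 H929 shCasp10-2 arrays, LCN2 reaches 1.98 in H929 shCasp10-3, and ALAS1 and CD14 lie higher on each later day in both H929 shCasp10-2 repeats.

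The repeats of H929 shCasp10-2 were also set against each other. Repeat 1 differed from repeat 2 in 10 features (0.103%), 8 of them lower (0.0826%) and 2 higher (0.0207%), and in 1588 (16.4%) at an unadjusted p under 0.05. P2RY13, a nucleotide receptor gene, was -2.85 and -2.61 in repeat 1 and 0.12, 1.28, -0.25 and 0.44 in repeat 2 (difference -3.13, SE 0.422, adjusted p = 0.0205). WDR11 was -2.68 and -3.30 in repeat 1 and between -0.46 and 0.24 in repeat 2 (difference -2.78, SE 0.415, adjusted p = 0.0388). TIMP3, an inhibitor of metalloproteinases, was -1.57 and -2.23 in repeat 1 and between -0.38 and 0.25 in repeat 2 (difference -1.80, SE 0.276, adjusted p = 0.0447). For these 3 genes the repeats did not overlap. Without repeat 1 day 4 the count was 1181, which then set the single day 3 array against repeat 2.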

How the data were processed

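Lymphochip two-channel arrays compared induced (Cy5) with uninduced (Cy3) cells, 50 ug of total RNA per channel, per the labels' protocols. The deposited values are 1 log ratio of both channels per probe and array, of unstated base, and were read as log2 ratios, the usual base. The direction, taken as Cy5 over Cy3 from the dyes in the labels, is likely but not stated. The arrays are not centred on the median, and what the authors did by way of background correction, normalization and probe filters is not given in the sources used here. Induced cells carried Cy5 on every array, so any bias of the dyes stays in the responses and drops out only of differences between groups. Ratios carry no signal levels, so no probe could be checked against background, and the number of arrays limits the precision.

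Of 15246 probes 10169 had 1 gene symbol in the platform annotation, 4 had several and 5073 were not listed, and 10128 were matched to RefSeq by Entrez ID. Probes of a gene were averaged and unnamed probes kept, giving 9681 features, of which 4604 are named genes. Arrays with over 10% of probes beyond 3 in absolute value were left out, which left 14 of the 20 arrays of H929 and KMS12 with both hairpins and 6 of the 8 of H929 shCasp10-2. These were fitted together with limma 3.58.1 in R 4.3.3 (lmFit, eBayes), with the course as a random block (statmod 1.5.0) and Benjamini-Hochberg adjustment over all features at 0.05. For the slope and the repeats the course was a fixed term. The estimated block correlation of the response was 0.075. Estimates of this correlation below 0 were set to 0. In simulated data with a true correlation within courses more false calls were made than the threshold allows.

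Named genes were, per comparison, the 10 with the largest change in each direction past the threshold (in the response with 1 sign on every array used), filled up by the smallest p, besides CASP10 and, in each list, the called members and the 2 lowest and 2 highest. Genes given outside this rule, among them the single probes called, were singled out after their values were seen. The members and the 28 gene lists were chosen with earlier results of these data known. Alternatives covered arrays, centring, days, probes, blocks and single arrays. No list received a test.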

Additional observations from a re-analysis of the deposited data

Results flagged for a closer look

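Over the 6 arrays used, P4HA1 had 1 array that stood apart, -1.053 on repeat 2 day 4 against -0.565 to -0.4 on the other 5. It was the only one of 27 genes and CASP10 probes checked in this way, and chance alone marks about 5% of such groups. Its other comparisons are given in the main text.

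Between the 2 hairpins in H929, the difference of shCasp10-2 from shCasp10-3 passed limma for LCN2, at -1.955 (adjusted p = 0.0427). Between the 2 lines with shCasp10-2, 55 named genes passed, and the leading ones by the naming rule were EBF3 at 4.767, IFI44 at 4.573, KCNQ1 at 4.275, JAZF1 at 4.172, TLR3 at 4.049, FNIP1 at 4.047, EMB at 3.851, RERGL at 3.463, CEP15 at 3.136 and PPIL4 at 3.122, with NRG1 at -1.143 in the other direction. In all of these but NRG1 the KMS12 mean was below -3, and no feature passed on course means, with the same days in pairs or with all arrays kept. EBF3 was -2.85 on repeat 1 day 3 of H929 and between -0.58 and 0.39 on the other 5 arrays.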

How the results depend on the processing

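Alternatives on wide arrays, direction and quiet features were chosen after seeing the data. The count of called features in the response was 3. It was 0 with all arrays kept, with arrays centred on their median, with only the H929 shCasp10-2 arrays, with all groups of the series, with days 2 to 4, on course means and with the sign of either day 3 array turned. It was 1 without both day 3 arrays, 5 at a 5% limit on wide arrays, 16 with arrays centred and scaled, 32 with no block, and 29 probe by probe. It was 28 over features within 3 on all 8 arrays and 28 over those within 3 on all 20 arrays with all arrays kept. With the course as a fixed term (replicate block) it was 81. Repeat numbers could not pair arrays across groups because the comparators have 1 course each, so only the same days were paired. Single arrays left out gave 0 to 23 and single repeats 0 (without repeat 1) and 12 (without repeat 2), with 23 without repeat 1 day 3 and 0 without repeat 1 day 4 or repeat 2 day 5.

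CASP10 over its 6 probes kept its sign and did not pass in any of the alternatives run, between -1.28 (all arrays kept) and -0.06 (sign of repeat 1 day 3 turned). Of its probes 3 were called. It was 0 with all arrays kept, only the H929 shCasp10-2 arrays, all groups, days 2 to 4, on course means, with either sign turned and without both day 3 arrays, and 0 to 3 with single arrays or repeats left out.

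Against H929 shCasp10-3 the count was 2. It was 0 with all arrays kept, only the groups compared, course means, same days in pairs, without both day 3 arrays and over both sets of quiet features. It was 1 at the 5% limit, with arrays centred and scaled, with all groups of the series and with the sign of repeat 1 day 3 turned (2 for repeat 2 day 3), 5 with days 2 to 4, 3 with the replicate block, and 0 to 2 with arrays or repeats left out. Against KMS12 shCasp10-2 it was 121. It was 0 with all arrays kept, course means, same days in pairs and, with all arrays kept, features within 3 on all 20 arrays, 13 with all groups, 16 over features within 3 on all 8 arrays, 31 with only the groups compared, 42 with days 2 to 4, 76 without the KMS12 day 3 array, 159 with the replicate block, 193 centred and scaled, 204 probe by probe, 231 without both day 3 arrays and 325 with the sign of repeat 1 day 3 turned (148 for repeat 2 day 3). Arrays or repeats left out gave 27 to 376.

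The slope on day called 0 features. It called 6 at the 5% limit, 1 with the sign of repeat 1 day 3 turned (0 for repeat 2 day 3), 3 without both day 3 arrays and 0 to 1027 with arrays or repeats left out, where 1027 came from repeat 1 alone, which has 2 days. Repeat 1 minus repeat 2 called 10. It called 0 with all arrays kept, same days in pairs and the sign of repeat 1 day 3 turned (10 for repeat 2 day 3), 3 centred and scaled, 4 with only these arrays, 5 with days 2 to 4, 19 at the 5% limit, 6 without both day 3 arrays, 1 over features within 3 on all 8 arrays, 5 over those within 3 on all 20, and 4 to 1181 with single arrays left out.

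Genes that turned sign with all arrays kept were, in the response, HLA-DOB at -0.138, GPX1 at -0.15, IKBKG at -0.936, GATA1 at -0.436, HMOX1 at -0.028, ARHGAP4 at -0.558 and VPS41 at -0.52; against H929 shCasp10-3, LTA at 0.768; in the slope, HK3 at 0.717, IL24 at 0.397, LCN2 at 0.336 and SEPTIN9 at 0.657; and between repeats, KLRA1P at -1.325, RAB12 at -0.121, FBXO11 at -1.28, CENPH at -0.286, ANKHD1 at -0.368, SRSF4 at -1.432 and USP9X at -0.466. The slope also had opposite signs in the 2 repeats alone for 6 genes. Without repeat 1 and without repeat 2 it was -1.564 and 0.549 for RAPGEF5, -1.825 and 1.087 for SPP1, -0.387 and 0.094 for IL24, -1.335 and 0.739 for PXK, -1.613 and 0.192 for NBAS, and -0.565 and 0.227 for SEPTIN9. With the sign of repeat 1 day 3 turned the repeat difference turned for COPS4 (-0.434), RNPC3 (1.323), LTB (0.058), MTA2 (0.167) and BCL6 (0.18). The cause was not tested. Ratios without signals leave the depth of each value unknown.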

Other observations

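Some genes set repeat 1 apart from repeat 2 with no ratio beyond 3 on the 6 arrays used, none past the threshold. On the wide array of repeat 1 day 1, LTB was at -3.87 and BCL6 at -4.64. LTB, which encodes lymphotoxin beta and is read by 7 probes, was -0.65 and -0.59 in repeat 1 and -0.07, 0.09, -0.10 and -0.03 in repeat 2, a difference of -0.60 (SE 0.117, adjusted p = 0.174). BCL6, a germinal centre repressor read by 6 probes, was -1.12 and -0.82 in repeat 1 and between -0.17 and 0.06 in repeat 2. The ubiquitin protease USP9X was 0.11 and 0.20 in repeat 1 and between -0.46 and -0.20 in repeat 2, and the signalosome subunit COPS4 was 1.47 and 0.68, against -0.32 to 0.26. In each of these genes the repeats did not overlap on the arrays used.

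Of the DNA synthesis and mitosis genes 30 of 41 were below 0, against 57.8% of all features, with a median of -0.06, against -0.04. TOP2A, which untangles replicated DNA, had an estimate of -0.41 (SE 0.116, adjusted p = 0.259) and was below 0 on all 6 arrays, while the checkpoint kinase BUB1 was the highest at 0.87 (SE 0.289, adjusted p = 0.338). BUB1 was 0.14 and -0.15 in repeat 1 and 1.71, 0.88, 1.05 and 1.84 in repeat 2. All 7 erythroid and platelet genes had estimates above 0 (median 0.12), with GATA1 the highest and HBG1 next among the named at 0.26 (SE 0.0956, adjusted p = 0.387).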
